A study of Homo sapiens with 12 samples.

Results

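The TGF-beta pathway was described in YT cells through 10 genes chosen by symbol, which encode the ligand TGFB1, the receptors TGFBR1, TGFBR2 and TGFBR3, the signal transducers SMAD2, SMAD3, SMAD4 and SMAD7, and the repressors SKI and SKIL. They are 10 of the 17589 genes in the table, and all 10 were among the 13657 genes with enough counts to be tested. TGFBR3 and SMAD7 passed that filter only through the FR1 and FR2 libraries, so by passing it they had to differ between those libraries and the others. YT is a human natural-killer-like lymphoid line that lacks CD16a. RNA was sequenced without stimulation from YT cells transduced with lentivirus encoding eGFP alone (CTRL), the modified CD16a receptor hnCD16, or a fusion receptor, in 3 libraries per group and 12 in all. FR1 carries the hnCD16 ectodomain on 2B4, DAP10 and CD3ζ signalling domains, and FR2 carries it on DAP10 and CD3ζ only. The receptors were driven by the constitutive EF1A promoter, and eGFP-positive cells of each group were sorted and expanded, so each group is a transduced and selected population. The labels do not say that the 3 libraries of a group came from separate cultures, and p-values therefore measure the spread between these libraries, which may be technical.

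TGF-beta is a secreted cytokine held in a latent complex until it is released. Active TGF-beta binds the type II receptor TGFBR2, which recruits and phosphorylates the type I receptor TGFBR1, and TGFBR1 phosphorylates SMAD2 and SMAD3, which enter the nucleus with SMAD4. SMAD7 and the SKI proteins restrain the pathway, and TGF-beta is known to dampen the cytotoxicity and cytokine release of NK cells.

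The FR1 and FR2 libraries stood apart from the CTRL and hnCD16 libraries in genes far outside the pathway. The library totals were even, from 17714550 to 18729013 counts. FCGR3A, the gene of CD16a, had 0 counts in every CTRL library and 453 to 1132 counts in the libraries of the receptor groups, although reads of the near-identical FCGR3B could be divided with it. Of 16 NK cell markers, 7 reached 1 CPM (counts scaled to the library total) in all libraries of CTRL and of hnCD16, against 12 in FR1 and 13 in FR2, and the markers summed to 94.9 to 106 CPM in CTRL and hnCD16 and to 4225 to 4574 CPM in FR1 and FR2. TYROBP, an NK adaptor, was at 0 in every FR1 and FR2 library. NCR3 reached 1 CPM in all libraries of CTRL and of hnCD16, but not in all of FR1 or of FR2. CD7 did so in every group except FR1. Of 9 T cell markers, 7 reached 1 CPM in CTRL and in hnCD16 and 3 in FR1 and in FR2, with sums of 673 to 813 CPM and 129 to 170 CPM. Of 8 Y chromosome genes, 1 reached 1 CPM in CTRL and in hnCD16 and 7 in FR1 and in FR2. They summed to 1.74 to 2.56 CPM in CTRL and hnCD16 and to 772 to 965 CPM in FR1 and FR2. B cell markers summed to at most 15.2 CPM in CTRL and hnCD16 and to 38.8 to 48.0 CPM in FR1 and FR2, myeloid markers to at most 12.2 CPM in any library, and the 3 fibroblast markers in the table to at most 6.92 CPM. The part of these differences in the results was not tested, and the receptor of FR1 and FR2 cannot be told apart from whatever else separated these libraries from the others. In bulk RNA, fewer cells of a type and less RNA per cell cannot be told apart either.

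The promoters of 4 genes that were higher in FR1 and FR2 are shown first, because SMAD7 is a textbook feedback target of the SMAD proteins and the others give its context. SMAD complexes bind the palindrome GTCTAGAC, the SMAD box CAGAC and the GC-rich motif GGCGC. The letters were searched on both strands in the bases before each RefSeq start (GRCh38.p14), and capitals mark a match to any of these motifs. The palindrome overlaps neither other motif, while GGCGCC counts as 1 match on each strand. Among 35116 RefSeq windows of 250 bases before a start, 38.0% held CAGAC, 44.5% held GGCGC and 0.182% held GTCTAGAC. Each sequence reads 5′ to 3′ on the strand of its gene. SMAD7 is shown before its most upstream start (chr18:48950966-48951215, minus strand), TGFBR3 before its start (chr1:91886152-91886401, minus strand), SMAD3 before its most upstream start (chr15:67065352-67065601, plus strand) and TGFBR2 before its most upstream start (chr3:30606106-30606355, plus strand). In GENCODE v44 the SMAD7 and TGFBR2 stretches lie outside annotated genes, and the TGFBR3 and SMAD3 stretches lie within the annotated gene of the same name and outside its exons.
SMAD7: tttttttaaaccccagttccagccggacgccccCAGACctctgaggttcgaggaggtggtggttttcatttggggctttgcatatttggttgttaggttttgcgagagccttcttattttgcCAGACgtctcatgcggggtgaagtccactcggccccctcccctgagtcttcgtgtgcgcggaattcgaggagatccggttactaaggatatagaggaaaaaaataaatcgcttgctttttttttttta
TGFBR3: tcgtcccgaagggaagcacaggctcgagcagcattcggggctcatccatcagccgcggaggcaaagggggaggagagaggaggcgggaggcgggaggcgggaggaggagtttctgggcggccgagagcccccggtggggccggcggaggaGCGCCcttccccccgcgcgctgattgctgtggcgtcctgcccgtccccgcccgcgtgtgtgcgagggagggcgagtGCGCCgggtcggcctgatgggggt
SMAD3: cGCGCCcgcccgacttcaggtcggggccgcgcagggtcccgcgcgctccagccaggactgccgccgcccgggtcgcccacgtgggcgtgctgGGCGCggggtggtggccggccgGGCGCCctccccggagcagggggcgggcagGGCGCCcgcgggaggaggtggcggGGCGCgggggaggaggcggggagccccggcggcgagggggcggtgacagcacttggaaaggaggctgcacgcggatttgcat
TGFBR2: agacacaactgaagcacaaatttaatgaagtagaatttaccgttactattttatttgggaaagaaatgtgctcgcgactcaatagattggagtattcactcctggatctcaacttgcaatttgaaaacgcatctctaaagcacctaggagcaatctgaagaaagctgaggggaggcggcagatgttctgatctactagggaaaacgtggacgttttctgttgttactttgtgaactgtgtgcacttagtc

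SMAD7 held 2 CAGAC matches and 0 GGCGC matches in these bases, TGFBR3 held 0 and 2, SMAD3 held 0 and 7, and TGFBR2 held 0 of either. GTCTAGAC was in none of the 4 stretches. Over 2000 bases before the start, 1.17% of RefSeq windows held the palindrome, and SMAD7 was the only gene among those of the 10 with a promoter window to hold it. It began 1260 bases before the SMAD7 start, in the following stretch of hg38 outside annotated genes (chr18:48952192-48952251, minus strand), shown because it carries the palindrome. These matches describe letters and not binding.
SMAD7 upstream: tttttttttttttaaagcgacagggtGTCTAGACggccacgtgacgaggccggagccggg

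At the level of RNA per length, the order of the genes differed between the 2 sets of libraries. Levels between genes are given as the deposited TPM values, which are scaled for transcript length and depth, as a mean ± SD of 3 libraries. In CTRL the highest were TGFB1 at 32.5 ± 3.66 TPM and SMAD2 at 28.7 ± 0.571 TPM, whose ranges overlapped, followed by SMAD4 at 17.4 ± 1.10 TPM and TGFBR1 at 13.2 ± 1.24 TPM. In hnCD16 SMAD2 led at 30.4 ± 0.913 TPM, above TGFB1 at 21.7 ± 1.48 TPM in every library. In FR1 TGFB1 led at 66.3 ± 5.81 TPM and SMAD3 followed at 32.6 ± 1.21 TPM, and in FR2 they stood at 78.9 ± 3.65 TPM and 49.7 ± 1.07 TPM. SMAD3 thus stood above SMAD2 in FR1 and FR2, where SMAD2 had 14.7 ± 0.586 and 13.9 ± 0.602 TPM, and below it in CTRL and hnCD16, where SMAD3 had 2.15 ± 0.148 and 1.48 ± 0.384 TPM. The 2 signalling receptors crossed in the same way. TGFBR1 exceeded TGFBR2 in CTRL, with 13.2 ± 1.24 against 2.67 ± 0.352 TPM, and in hnCD16, with 12.8 ± 0.787 against 2.26 ± 0.192 TPM. TGFBR2 exceeded TGFBR1 in FR1, with 13.1 ± 0.211 against 1.95 ± 0.583 TPM, and in FR2, with 14.9 ± 0.692 against 2.31 ± 0.329 TPM.

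**Figure D1:**
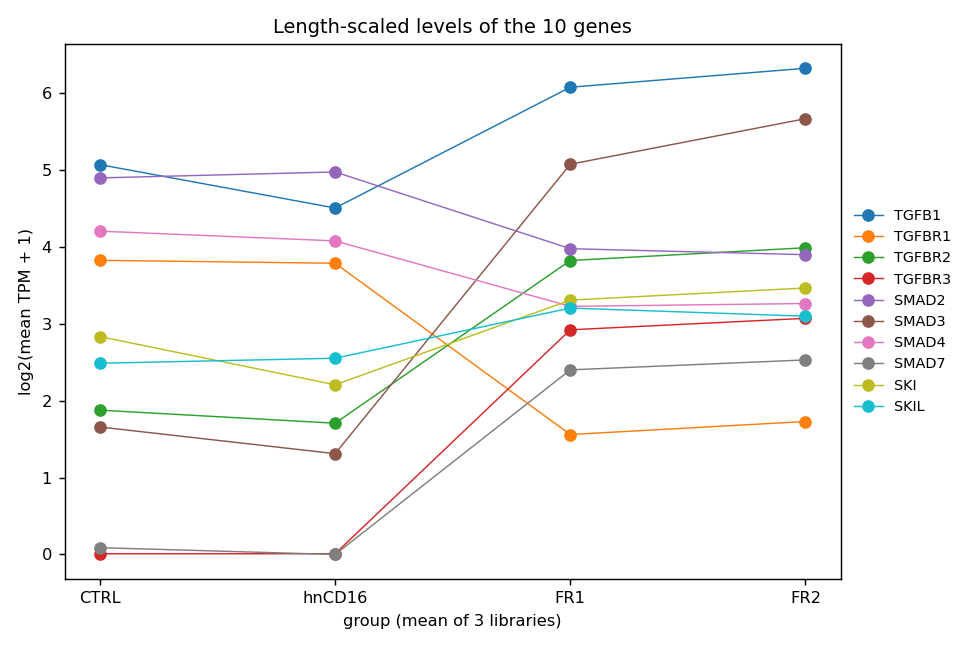
Mean TPM of 3 libraries per group for each of the 10 genes, on a log2(TPM + 1) axis, with thin lines that only join the values of a gene across unordered groups. SMAD3 crosses SMAD2 and TGFBR2 crosses TGFBR1 between hnCD16 and FR1, while TGFB1 stays among the 2 highest genes in all groups.

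The comparisons of 1 gene between groups used CPM with TMM library sizes and edgeR's quasi-likelihood test, and a gene was called differentially expressed (DEG) where its log2 fold change reached 1 in either direction with p, adjusted after Benjamini and Hochberg over all genes tested, no higher than 0.05. FR1 and FR2 share the same CTRL and hnCD16 libraries as comparators, so the comparisons below are not independent of each other. Against hnCD16, 6 of the 10 genes were higher DEGs in FR1 and the same 6 in FR2, and 1 gene was a lower DEG in each. Without TGFBR3 and SMAD7, whose direction the filter fixed, 4 of 8 genes were higher and 1 lower in each. The background was high in both directions. In FR1 against hnCD16, 18.7% of all tested genes were higher DEGs and 19.6% lower DEGs, and in FR2 against hnCD16 the shares were 19.6% and 19.8%. The median log2 fold change of the 10 genes was 1.58 in FR1 and 1.78 in FR2, beside -0.01 and -0.03 for all tested genes. Without TGFBR3 and SMAD7 it was 1.09 and 1.10. Against CTRL, 6 genes were higher and 1 lower in FR1, with 18.3% and 19.8% of all tested genes, and 5 were higher and 1 lower in FR2, with 18.7% and 19.6%. Among the 8 genes without TGFBR3 and SMAD7, 4 were higher in FR1 and 3 in FR2. All 10 genes had an adjusted p under 0.05 in each of these 4 comparisons, as did 79.1% of tested genes in FR1 against hnCD16, 80.1% in FR2 against hnCD16, 79.9% in FR1 against CTRL and 80.2% in FR2 against CTRL. The libraries of each of the 10 genes were fully separated in each of these comparisons, 7 genes higher and 3 lower in the FR group. TGFBR3 and SMAD7 are among the 7. For them the filter had already given the separation and the low adjusted p. The groups did not overlap for 80.8%, 81.7%, 80.5% and 81.2% of tested genes in the same order, so separation as such was common.

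**Figure D2:**
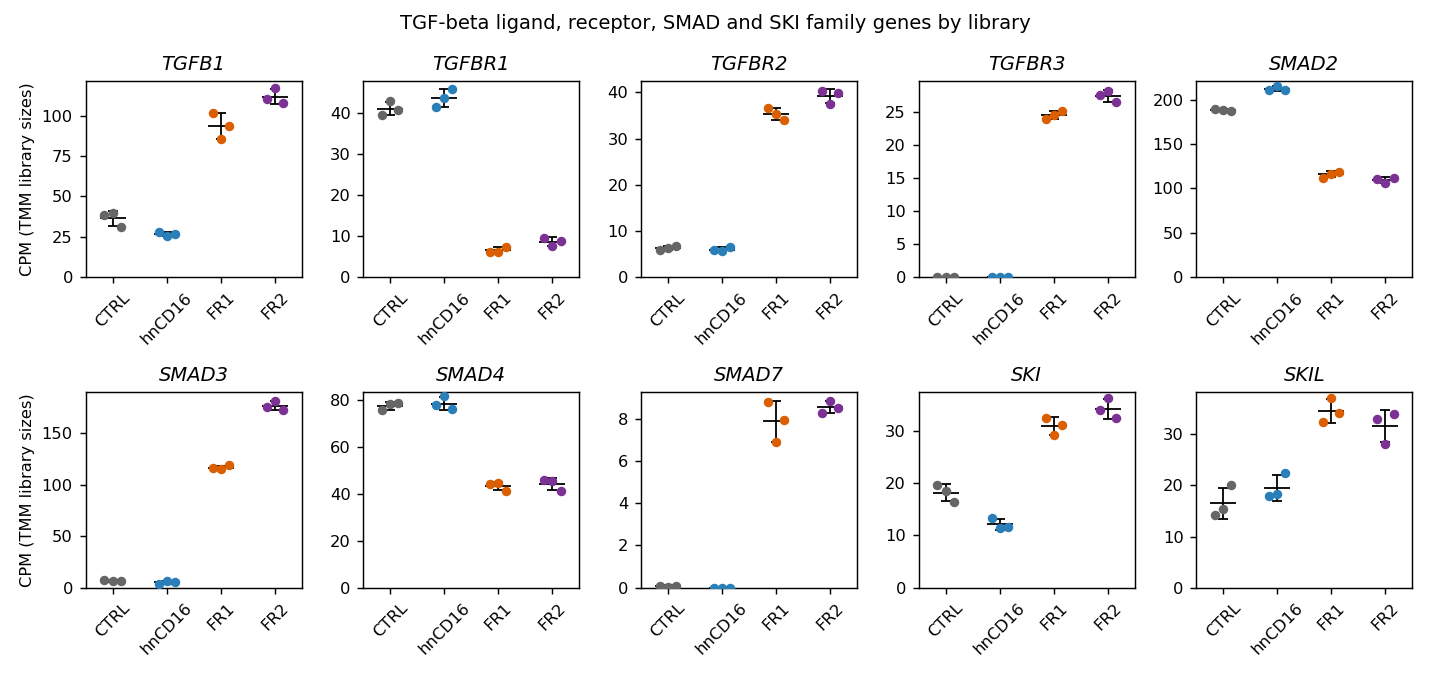
CPM of the 10 genes in each of the 12 libraries, with a linear axis from 0, coloured points for libraries and black bars for the mean and SD of 3 libraries. TGFBR1, SMAD2 and SMAD4 sit lower in FR1 and FR2 than in CTRL and hnCD16, and the other 7 genes sit higher.

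TGFB1 encodes the ligand and lies at chr19:41301587-41353922 on the minus strand (gene coordinates are from GENCODE v44 on GRCh38). Its CPM was 38.5, 39.6 and 31.3 in CTRL, 27.9, 25.7 and 27.0 in hnCD16, 102, 85.9 and 93.7 in FR1, and 111, 117 and 108 in FR2. The 4 groups did not overlap, and their order was FR2, FR1, CTRL and hnCD16. TGFB1 rose in FR1 against hnCD16 by 1.80 ± 0.0823 on the log2 scale (SE, adjusted p = 7.80e-13) and in FR2 by 2.06 ± 0.0820 (adjusted p = 1.03e-13), and against CTRL by 1.36 and 1.62. The table splits TGFB1 into a curated RefSeq transcript and a predicted model. The curated transcript, NM_000660, took 57.5% of the TPM of the gene in CTRL and 57.0% in hnCD16, against 72.0% in FR1 and 74.2% in FR2. Its share ranged from 51.3% to 64.0% over the CTRL and hnCD16 libraries and from 70.9% to 77.1% over the FR1 and FR2 libraries, without overlap, and was not tested.

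TGFBR1, the type I kinase receptor, was the only one of the 10 genes that fell as a DEG in FR1 and FR2 (chr9:99104038-99154192, plus strand). Its CPM was 39.6, 42.9 and 40.9 in CTRL, 41.5, 43.8 and 45.8 in hnCD16, 6.13, 6.19 and 7.37 in FR1, and 9.62, 7.47 and 8.92 in FR2. CTRL and hnCD16 overlapped, and every FR1 and FR2 library lay far below both. TGFBR1 fell by 2.73 on the log2 scale in FR1 against hnCD16 (SE 0.0890, adjusted p = 6.01e-15) and by 2.33 in FR2 (SE 0.0847, adjusted p = 2.69e-14), and against CTRL by 2.65 and 2.24.

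TGFBR2, the type II kinase receptor that binds the ligand, moved the other way (chr3:30606601-30694142, plus strand). Its CPM was 5.82, 6.30 and 6.77 in CTRL, 5.82, 5.62 and 6.48 in hnCD16, 36.6, 35.3 and 34 in FR1, and 40.2, 37.5 and 39.9 in FR2. CTRL and hnCD16 overlapped and were low in every library. TGFBR2 rose by 2.56 ± 0.0774 on the log2 scale in FR1 against hnCD16 (SE, adjusted p = 2.05e-15) and by 2.71 ± 0.0766 in FR2 (adjusted p = 7.42e-16), and against CTRL by 2.49 and 2.64.

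TGFBR3, or betaglycan, is a co-receptor that presents ligand to TGFBR2 (chr1:91680343-91906335, minus strand). It had 1, 0 and 0 counts in the CTRL libraries and again 1, 0 and 0 in the hnCD16 libraries. FR1 had 415, 425 and 440 counts and FR2 had 492, 499 and 464. With a sum of 1 count in each of CTRL and hnCD16, the ratio of FR1 to hnCD16 was 1369-fold with an exact 95% counting interval of 245 to 54122, and the ratio of FR2 to hnCD16 was 1529-fold with an interval of 274 to 60427. Against CTRL the ratios were 1466 (263 to 57947) and 1637 (293 to 64697). These intervals cover counting error only. The filter had already fixed the direction for TGFBR3, so its DEG calls in these 4 comparisons carry no separate weight. The deposited division between its transcripts was unstable, and the share of NM_003243 ran from 23.9% to 100% over the FR2 libraries.

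SMAD3, a receptor-activated transducer, had the largest difference among the 8 genes other than TGFBR3 and SMAD7 (chr15:67063763-67195173, plus strand). Its CPM was 7.66, 6.65 and 6.12 in CTRL, 3.97, 6.32 and 5.26 in hnCD16, 116, 115 and 119 in FR1, and 175, 182 and 173 in FR2. CTRL and hnCD16 overlapped, and FR1 and FR2 were separate from them and from each other. SMAD3 rose by 4.49 ± 0.0971 on the log2 scale in FR1 against hnCD16 (SE, adjusted p = 1.79e-17) and by 5.09 ± 0.0965 in FR2 (adjusted p = 2.84e-18), and against CTRL by 4.10 and 4.70.

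SMAD2, the other transducer that TGFBR1 phosphorylates, was lower in FR1 and FR2 and stayed under the fold threshold (chr18:47808957-47931146, minus strand). Its CPM was 189.5, 189 and 187 in CTRL, 212, 216 and 211 in hnCD16, 112.4, 117 and 119 in FR1, and 110.3, 106 and 112.2 in FR2. The 4 groups did not overlap, in the order hnCD16, CTRL, FR1 and FR2, although FR1 and FR2 nearly touched. With hnCD16 as the comparator, the log2 fold change of SMAD2 was -0.88 ± 0.0441 for FR1 (SE, adjusted p = 3.24e-12) and -0.96 ± 0.0442 in FR2 (adjusted p = 8.47e-13), and against CTRL it was -0.70 and -0.78.

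SMAD4, the partner that carries activated SMADs to DNA, was likewise lower without reaching the fold threshold (chr18:51028528-51085045, plus strand). Its CPM was 75.7, 78.2 and 78.6 in CTRL, 77.7, 81.5 and 76.0 in hnCD16, 44, 44.5 and 41.4 in FR1, and 46.1, 45.4 and 41.2 in FR2. CTRL overlapped with hnCD16 and FR1 with FR2. With hnCD16 as the comparator, the log2 fold change of SMAD4 was -0.86 ± 0.0550 for FR1 (SE, adjusted p = 1.07e-10) and -0.83 ± 0.0549 in FR2 (adjusted p = 1.61e-10), and against CTRL it was -0.84 and -0.81. SMAD4 was quantified as a single RefSeq transcript, so its value rests on no division between transcripts.

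SMAD7, the inhibitory SMAD that competes at the receptor and recruits ubiquitin ligases, was nearly absent outside FR1 and FR2 (chr18:48919853-48950965, minus strand). It had 2, 1 and 2 counts in the CTRL libraries and 0 counts in each hnCD16 library. FR1 had 152, 119 and 139 counts and FR2 had 148, 156 and 149, so both FR groups lay far from the others and overlapped with each other. Against CTRL the ratio was 93.9-fold in FR1 (exact 95% counting interval 39.9 to 291) and 102-fold in FR2 (43.4 to 315). Against hnCD16, with the floor of 3 counts over the group in place of 0, the counts put SMAD7 at least 146-fold higher for FR1 and, for FR2, at least 159-fold higher. The curated transcript NM_005904 took 80.4% of the TPM of SMAD7 in FR1 and 71.6% in FR2. As for TGFBR3, the filter had already fixed the direction of the DEG calls.

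SKI and SKIL are related proto-oncoproteins that bind SMADs and repress their targets. SKI (chr1:2227388-2310213, plus strand) had a CPM of 19.6, 18.5 and 16.4 in CTRL, 13.3, 11.5 and 11.5 in hnCD16, 32.5, 29.1 and 31.1 in FR1, and 33.9, 36.2 and 32.5 in FR2. The CTRL libraries lay between those of hnCD16 and those of FR1 and FR2, without overlap. SKI rose against hnCD16 by 1.35 ± 0.0827 on the log2 scale in FR1 (SE, adjusted p = 5.39e-11) and by 1.5 ± 0.0819 in FR2 (adjusted p = 9.80e-12), and against CTRL the log2 fold changes of 0.76 and 0.91 stayed under the fold threshold.

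SKIL (chr3:170357342-170396835, plus strand) had a CPM of 14.3, 15.3 and 20 in CTRL, 17.9, 18.3 and 22.4 in hnCD16, 32.5, 37.1 and 34.2 in FR1, and 33.0, 28.1 and 33.9 in FR2. Its libraries overlapped within each pair of groups and not between the pairs. Against hnCD16 the log2 fold change was 0.83 ± 0.112 in FR1 (SE, adjusted p = 2.51e-06) and 0.70 ± 0.113 for FR2 (adjusted p = 1.92e-05), short of a DEG. Against CTRL it was 1.06 ± 0.113 in FR1 (adjusted p = 1.13e-07), a DEG, and 0.94 ± 0.114 in FR2 (adjusted p = 6.53e-07), not a DEG. SKIL sat at the threshold. The FR1 call was lost with scaling by library size only (0.87), with limma on TPM, and without CTRL replicate 1 (0.97) or CTRL replicate 2 (0.99), while the FR2 value passed without CTRL replicate 3 (1.12) or FR2 replicate 2 (1.02).

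**Figure D3:**
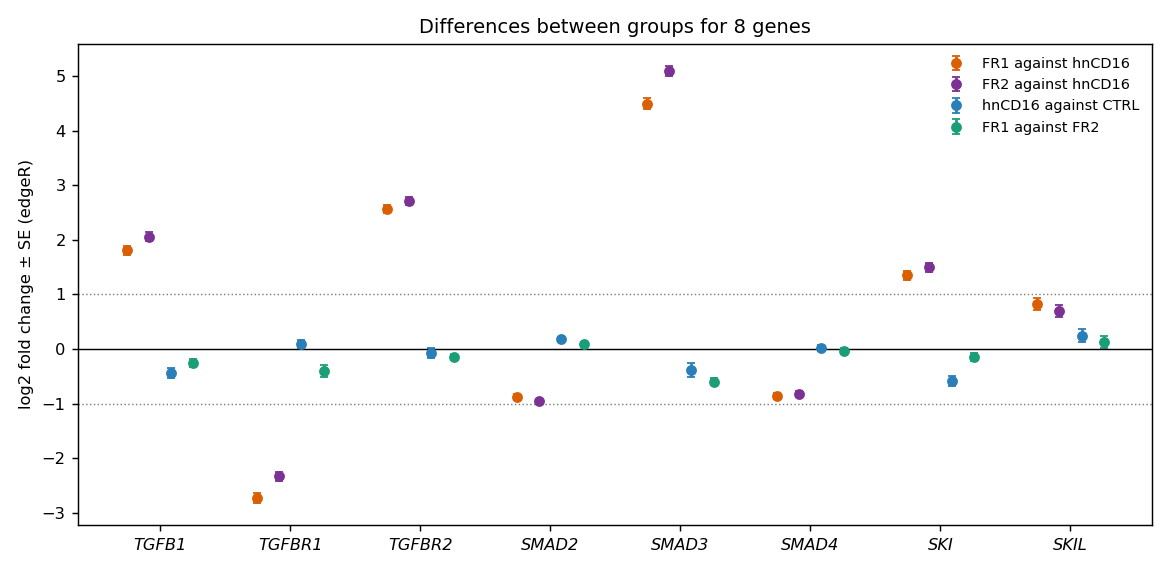
Log2 fold changes of edgeR with their SE for the 8 genes other than TGFBR3 and SMAD7, in 4 comparisons. Dotted lines mark the fold threshold of 1 in each direction. SMAD3 is highest at 4.49 and 5.09, TGFBR1 is lowest at -2.73 and -2.33, and hnCD16 against CTRL and FR1 against FR2 stay inside the dotted lines.

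hnCD16 against CTRL compared the receptor with its natural CD16a tail with eGFP. SMAD7, with 0 against 5 counts in all, was the only DEG of the 10 genes there (log2 fold change -3.74, adjusted p = 0.0270), and a fold from so few counts is not a bound. The call was lost with DESeq2 (adjusted p = 0.0502, over all alternatives 0.00315 to 0.369) and without CTRL replicate 1 or 3 or any hnCD16 replicate. Over all tested genes, 0.212% were higher and 0.315% lower DEGs. Below the fold threshold, SKI was lower in every hnCD16 library by a log2 fold change of -0.58 ± 0.0864 (SE, adjusted p = 9.11e-05) and TGFB1 by -0.44 ± 0.0856 (adjusted p = 0.000644). SMAD2 stood at 0.17 ± 0.0431 (adjusted p = 0.00373, over the alternatives 0.000580 to 0.274, with the high end from library size scaling and limma on TPM). SMAD3 stood at -0.39 ± 0.128 (adjusted p = 0.0200), with adjusted p = 0.0885 without CTRL replicate 1, 0.117 without hnCD16 replicate 1, and 0.00374 at the lowest. With SMAD7, 5 of 10 genes had an adjusted p under 0.05, as did 43.0% of tested genes. The libraries did not overlap for SMAD2, TGFB1, SMAD7 and SKI, as for 47.7% of tested genes. TGFBR2 and SKIL differed by -0.08 ± 0.0964 and 0.24 ± 0.119 on the log2 scale, with adjusted p = 0.615 and 0.121. TGFBR1 and SMAD4 differed by 0.09 ± 0.0691 and 0.02 ± 0.0526, with adjusted p = 0.346 and 0.832, and the sign of each flipped when only the library size was used for scaling.

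FR1 and FR2 differ in the 2B4 domain, which only FR1 carries. They also differed in the RNA counted to FCGR3A, with a mean of 32.4 CPM in FR1 and 61.3 CPM in FR2 (log2 fold change -0.92 ± 0.0575, SE, adjusted p = 4.07e-08), and its part in the values was not tested. Between them 0 of the 10 genes were DEGs in edgeR, with 4 at an unadjusted and 3 at an adjusted p under 0.05. Of all tested genes, 0.439% were higher and 1.49% lower DEGs in FR1, and 36.2% had an adjusted p under 0.05. DESeq2 and limma also called 0 of the 10. The widest difference was that of SMAD3, lower in every FR1 library than in every FR2 library by a log2 fold change of -0.60 ± 0.0695 (SE, adjusted p = 6.35e-06). TGFBR1 differed by -0.40 ± 0.110 (adjusted p = 0.00830, up to 0.306 with limma on TPM) and TGFB1 by -0.25 ± 0.0746 (adjusted p = 0.0128). The TGFB1 value had adjusted p = 0.0816 without FR1 replicate 2 and 0.0642 without FR2 replicate 2, and 0.000521 at the lowest over the alternatives. For the other 7 genes the log2 fold change lay between -0.16 and 0.13. The libraries did not overlap for 7 of the 10 genes, 6 of them lower in FR1, beside 50.1% of tested genes.

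Many other genes followed the same split of the libraries as the 10 genes. By Pearson r of log2(CPM + 1) over the 12 libraries, which fall into 2 sets, between 321 genes (for SKIL) and 2405 genes (for TGFBR3) of 12340 had an r over 0.95. The nearest gene was ZNF672 for TGFB1 (r = 0.9989), VAV3 for TGFBR1 (0.9993), ACOT9 for TGFBR2 (0.9994), CACNA2D3 for TGFBR3 (0.9999), IFI44 for SMAD2 (0.9984), MOB3C for SMAD3 (0.9993), NTNG2 for SMAD4 (0.9973), MYPN for SMAD7 (0.9995), EPN1 for SKI (0.9965) and ACAP2 for SKIL (0.9881). Second were TBC1D9B, ZNF426, C2CD4D, B4GALNT1, TAF1A, SLC37A1, ANKEF1, TPST2, RNH1 and ZNF12 in the same order. By Spearman's rho the nearest gene was the same for TGFBR1 only.

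The wider pathway was followed in a list of 95 further genes in 4 roles, of which 89 are in the table and 70 were tested, SMAD6 under 2 roles. Against hnCD16, 19 of the 70 were higher and 22 lower DEGs in FR1, and 18 were higher and 19 lower in FR2. Of all tested genes, 18.7% were higher and 19.6% lower in FR1, and 19.6% and 19.8% in FR2. The median log2 fold changes of the 70 genes were -0.06 and -0.01, close to those of all tested genes. Their median absolute values were 1.31 and 1.13, beside 0.70 and 0.73 for all tested genes. These absolute medians include genes that passed the count filter in only 1 pair of groups, which favours large values. They were not taken without those genes, and the list was chosen with earlier results of these data known. Against CTRL, 18 of the 70 were higher and 20 lower in each of FR1 and FR2. The shares of all tested genes there were 18.3% and 19.8% in FR1 and 18.7% and 19.6% in FR2. Of the 70 genes, 7 passed the count filter only through FR1 and FR2, namely TGIF1, ZEB2, CDKN1A, CDKN2B, CD9, RGS16 and COL1A1. Another 8 passed only through CTRL and hnCD16, namely ITGAV, BMPR1B, LTB, ID1, ACVR2A, FN1, ITGA1 and TGFB3. Passing in this way favoured a difference between the pairs of groups, COL1A1 through its FR2 libraries, so their calls carry no separate weight. It did not force a difference in every comparison. With edgeR, FN1 was not a DEG in FR1 against CTRL (log2 fold change -0.84, adjusted p = 0.101). COL1A1 was not a DEG in FR1 against hnCD16 (-1.35, adjusted p = 0.0759). Among the other 55 genes, 13 were higher and 14 lower in FR1 against hnCD16, with a median of 0.08, and 11 were higher and 11 lower in FR2, with a median of -0.01. Against CTRL the counts were 12 and 13 in FR1 and 11 and 12 in FR2.

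**Figure D4:**
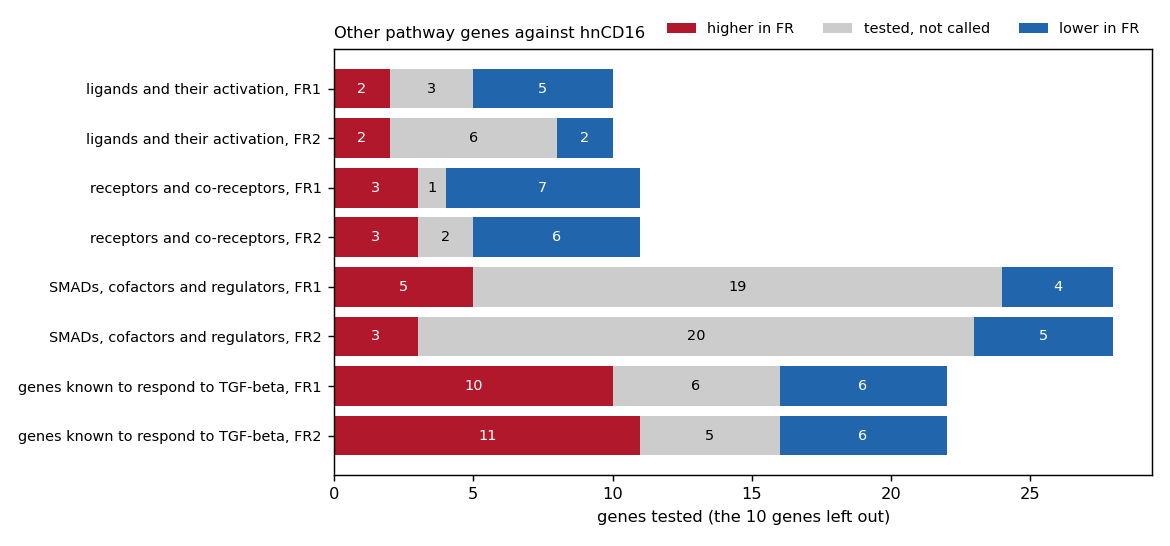
Number of tested list genes that were higher DEGs (red), not DEGs (grey) or lower DEGs (blue) in FR1 and FR2 against hnCD16, by role and without the 10 genes. Receptors and co-receptors have 7 and 6 lower DEGs of 11, and the responding genes have 10 and 11 higher DEGs of 22. The counts include genes that passed the count filter in only 1 pair of groups. The shares of all tested genes were 18.7% higher and 19.6% lower in FR1, and 19.6% and 19.8% in FR2.

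Among ligands and the proteins that release them, 2 of 10 tested genes were higher DEGs in FR1 against hnCD16 and 5 lower, and in FR2 2 were higher and 2 lower. The shares of all tested genes were 18.7% higher and 19.6% lower in FR1, and 19.6% and 19.8% in FR2. FURIN, the protease that cuts pro-TGF-beta, rose from 4.77 ± 0.374 CPM in hnCD16 (SD, n = 3) to 31.0 ± 2.84 in FR1 and 39.6 ± 1.88 in FR2. GDF11, a ligand of the activin branch, rose from 30.2 ± 1.84 CPM to 64.2 ± 0.649 and 69.7 ± 1.96. ITGAV, the integrin chain that frees latent TGF-beta, fell from 43.7 ± 3.52 CPM to 0.382 ± 0.313 and 0.453 ± 0.206. It was the steepest fall in this role. ITGAV and TGFB3 passed the count filter only through CTRL and hnCD16, which fixed their direction. These were the only lower DEGs of this role in FR2, and both were also lower DEGs in FR1. LTBP4 and NRROS, which hold the latent complex, fell in FR1 from 3.75 ± 0.0969 to 1.29 ± 0.368 CPM and from 40.0 ± 2.47 to 16.6 ± 1.26 CPM, and in FR2, at 2.09 ± 0.309 and 21.2 ± 1.3 CPM, they stayed under the fold threshold.

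Among receptors and co-receptors, 3 of 11 tested genes were higher and 7 lower in FR1 against hnCD16, and 3 were higher and 6 lower in FR2. The shares of all tested genes were 18.7% higher and 19.6% lower in FR1, and 19.6% and 19.8% in FR2. The 3 that rose were BMP receptors. ACVR1, a type I receptor, rose from 4.09 ± 0.261 CPM in hnCD16 to 25.8 ± 0.948 in FR1 and 32.4 ± 0.961 in FR2. BMPR1A, also of type I, rose from 8.16 ± 0.433 CPM to 41.4 ± 2.82 and 42.1 ± 0.474, and the type II receptor BMPR2 from 3.85 ± 0.672 CPM to 14 ± 0.942 and 16.6 ± 0.639. For their relative BMPR1B the count was 36 to 44 in hnCD16 and 0 in every FR1 and FR2 library. That put BMPR1B at least 36.1-fold and 36.8-fold lower. BMPR1B and ACVR2A passed the count filter only through CTRL and hnCD16, which fixed their direction. ACVR2A was also among the lower DEGs of this role in FR1 and in FR2. LDLRAD4, which keeps SMAD2 and SMAD3 from the receptor, fell from 32.5 ± 0.887 CPM to 1.17 ± 0.176 and 1.26 ± 0.122. BAMBI, a receptor without a kinase domain that blocks signalling, fell from 11.8 ± 0.340 CPM to 1.57 ± 0.477 and 2.17 ± 0.135.

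Among SMADs, cofactors and regulators, 5 of 28 tested genes were higher and 4 lower in FR1 against hnCD16, and 3 were higher and 5 lower in FR2. The shares of all tested genes were 18.7% higher and 19.6% lower in FR1, and 19.6% and 19.8% in FR2. This role was thus not above all tested genes in either direction. TGIF1, a SMAD corepressor, had 4 counts over the hnCD16 libraries and 190 to 206 per library in FR1 and 271 to 305 in FR2, a ratio of 159 (exact 95% counting interval 61.7 to 585) and of 225 (87.4 to 826). TGIF1 passed the count filter only through FR1 and FR2, which fixed its direction. Its relative TGIF2 fell from 30.1 ± 0.755 CPM to 6.32 ± 0.701 and 9.13 ± 0.271. SMAD6, the inhibitory SMAD of the BMP branch, rose from 1.20 ± 0.234 CPM to 7.47 ± 0.299 and 8.71 ± 0.359. The RUNX partners of SMADs also moved in opposite directions. RUNX3 rose from 34.4 ± 1.39 CPM to 112 ± 7.39 and 122 ± 0.811, and RUNX1 fell from 176 ± 6.04 CPM to 39.8 ± 1.74 and 51.0 ± 1.41. ZFYVE9, also called SARA, which presents SMAD2 and SMAD3 to the receptor, fell from 39.4 ± 3.33 CPM to 1.84 ± 0.157 and 2.07 ± 0.575.

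Among genes known to respond to TGF-beta, 10 of 22 tested genes were higher and 6 lower in FR1 against hnCD16, and 11 were higher and 6 lower in FR2. The shares of all tested genes were 18.7% higher and 19.6% lower in FR1, and 19.6% and 19.8% in FR2. The list holds genes that TGF-beta induces in other cells and genes that it represses, and many have other regulators. These counts include genes that passed the count filter in only 1 pair of groups. ZEB2, CDKN1A, CDKN2B, CD9, RGS16 and COL1A1 passed only through FR1 and FR2. LTB, ID1, FN1 and ITGA1 passed only through CTRL and hnCD16. The filter had thus fixed the direction of ZEB2, CDKN1A, LTB and ID1 between the pairs and favoured that of the others. All were DEGs in that direction in FR1 and FR2 against hnCD16, except COL1A1, which was a DEG in FR2 only. Their calls carry no separate weight in the counts of this role. ZEB2, a zinc-finger transcription factor needed for NK cell maturation, had 0 counts in every hnCD16 library and 1988 to 2040 in FR1 and 1613 to 1765 in FR2, at least 2156-fold and 1797-fold higher. CDKN1A, the cell cycle inhibitor p21, rose from 0.233 ± 0.113 CPM to 110 ± 4.82 and 120.4 ± 4.91. ID2, a factor required for NK cells, rose from 0.968 ± 0.324 CPM to 240.3 ± 8.48 and 259 ± 3.89. Its relative ID1 fell, with a count of 52 to 55 in hnCD16 and of at most 4 in an FR1 or FR2 library. LTB, which encodes lymphotoxin beta, fell from 178 to 199 counts per hnCD16 library to at most 1 per FR1 or FR2 library, a ratio of hnCD16 to FR1 of 524 (exact 95% counting interval 93.7 to 20751). MYC fell from 214 ± 10.4 CPM to 44.9 ± 1.48 and 49.1 ± 2.48.

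Few list genes were DEGs within the pairs of groups, and few of all tested genes were. In hnCD16 against CTRL, 0.212% of all tested genes were higher and 0.315% lower DEGs. The shares in FR1 against FR2 were 0.439% and 1.49%. Of the 70 genes, 0 were DEGs in hnCD16 against CTRL with edgeR, with 31 at an unadjusted and 25 at an adjusted p under 0.05, the latter beside 43.0% of all tested genes, and DESeq2 and limma also called 0. Between FR1 and FR2, 22 had an adjusted p under 0.05, beside 36.2% of all tested genes. COL1A1, a collagen gene, was the only DEG of the list in FR1 against FR2. It had 1 to 3 counts in the FR1 libraries and 10 to 14 in the FR2 libraries, a ratio of FR2 to FR1 of 6.06 (exact 95% counting interval 2.53 to 17.6, adjusted p = 0.00221). COL1A1 passed the count filter only through the FR libraries, and of these only FR2 had 10 or more counts. Passing thus fixed its direction here, and the call carries no separate weight. DESeq2 did not call COL1A1.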

How the data were processed

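RNA-seq of 12 libraries of YT cells, 3 in each of 4 groups, was used. Reads had been mapped to GRCh38.p13, and the submitters' processing notes name HISAT2 2.1.0, Bowtie2 2.3.4.3, RSEM 1.3.1 and DESeq2 1.4.5. The authors deposited expected counts, the RSEM estimates for each gene and transcript, without scaling. In this step reads shared by similar genes or transcripts are divided by estimate. The authors also deposited TPM, scaled for length and depth. Whether counting used strand is not given in the sources used here. FPKM values, normalized counts and averages over replicates were not used.

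Expected counts were rounded, filtered with filterByExpr and tested with edgeR 4.0.16 in R 4.3.3 (TMM, quasi-likelihood, 1 fit of 4 groups, Benjamini-Hochberg within each of 6 comparisons), with the DEG thresholds given in the report. The test was tried on simulated counts. Library totals of 17714550 to 18729013 counts set the precision, and intervals cover counting error only. Replicate pairs differed by more than sampling noise (chi-square per gene 2.06 to 12.3). Transcript counts summed to the gene count within 0.1 in 100% of gene values. The 10 genes and all lists were chosen with earlier results of these data known. In each role the text names up to 3 genes highest and 3 lowest by log2 fold change of FR1 against hnCD16, taken from DEGs averaging 1 CPM or more, plus every list DEG within the pairs of groups and the 2 genes nearest in pattern. List genes absent from the table were not analysed here. Promoter letters come from RefSeq (GRCh38.p14), whose table matched 9 of the 10 genes (not SKI), and from hg38, and gene positions from GENCODE v44. The alternatives were DESeq2 1.42.0, limma 3.58.1 on TPM with a pseudocount of 1 or 0.1, other scalings, filters and fits, the replicate block, no fold threshold, and leaving out each library.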

Additional observations from a re-analysis of the deposited data

How the results depend on the processing

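The fold changes of the 10 genes between FR1 or FR2 and CTRL or hnCD16 had 592 values under the alternatives. Of these, 0 reversed and 578 stayed on their side of the DEG thresholds. TGFBR3 and SMAD7 gave 14 values each per comparison, which could not bear on reversal, since the filter had fixed their direction. SMAD2, SMAD4 and SKIL, near the fold threshold, gave the 5 that lost and the 9 that gained a call, and the cause was not tested. Scaling by library size only took the median of all tested genes from -0.03 to -0.22 in FR1 against CTRL, from -0.04 to -0.17 in FR2 against CTRL and from -0.01 to -0.12 in hnCD16 against CTRL. Counting depth limits TGFBR3, SMAD7 and COL1A1, which had few counts in some groups.

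In hnCD16 against CTRL, the 1 DEG among the 10 genes became 0 with DESeq2, with a minimum of 10 counts in every library, with limma on log2(TPM + 1) or log2(TPM + 0.1) and in a fit of only the 2 groups, 0 to 1 when a library was left out, and 5 with no fold threshold. There TGFBR1 reversed to -0.0256 by library size only and to -0.036 and -0.0383 with limma at the pseudocounts of 1 and 0.1. TGFBR3, with 1 count in CTRL and 1 in hnCD16, reversed to -0.0105 by library size only and ranged from -1.79 to 1.86 without single libraries. SMAD4 reversed to -0.0964 by library size only, to -0.1253 and -0.132 with limma and to -0.0111 with only the 2 groups, and ranged from -0.0114 to 0.0401 without single libraries. In FR1 against FR2, SMAD4 ranged from -0.0795 to 0.0017 without single libraries.

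With no fold threshold, the DEGs among the 10 genes were 10 in FR2 against CTRL and 3 in FR1 against FR2. The list DEGs then became 25 in hnCD16 against CTRL, 59 in FR1 and in FR2 against CTRL, 62 and 61 against hnCD16, and 22 in FR1 against FR2. With at least 10 counts in every library, which tests fewer genes, they became 24 and 23 against CTRL, 26 and 22 against hnCD16, and 0 in FR1 against FR2, where DESeq2 and limma on log2(TPM + 1) also gave 0. Without single libraries, the list DEGs were 0 to 1 in hnCD16 against CTRL and 1 to 2 in FR1 against FR2.

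Replicate numbers are shared between groups in the labels. Deviations of same-numbered libraries correlated from 0.001 to 0.464 in hnCD16 against CTRL, with a mean of 0.283 beside -0.142 for other numbers. In FR1 against FR2 they ran from -0.119 to 0.004, with a mean of -0.04 beside 0.02. The means were 0.111 in FR2 against CTRL and 0.107 in FR2 against hnCD16, beside -0.055 and -0.053. For FR1 they were 0.023 against CTRL and 0.07 against hnCD16, beside -0.011 and -0.035. Whether a shared number marks a common batch was not tested. With the replicate block the DEGs among the 10 genes stayed at 1, 7, 6, 7, 7 and 0 in the 6 comparisons, and 1 list gene remained a DEG in FR1 against FR2.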
